A study of Mus musculus with 17 samples.

Results

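Sympathetic ganglia of heterozygous knock-in mice (Het) were compared between postnatal day 18 (P18) and the day of birth (P0), gene by gene, on 6 of the 17 expression arrays of the series. The mice were of the C57BL/6 strain and carried the activating F1178L substitution of the receptor tyrosine kinase Alk on 1 allele, in a targeted locus whose mutated exon is flanked by recombination sites. The change is in the germline and therefore in every cell of the ganglion, and superior cervical and stellate ganglia were pooled before RNA was taken. There were 2 P18 Het arrays, numbered 4 and 5 by the labels, and 4 P0 Het arrays, numbered 5 to 8. Wild-type ganglia (Wt) at P18 (3 arrays) and at P0 (4 arrays) served to ask whether the change with age differed by genotype, and 4 arrays of homozygous ganglia at P0 entered the fit only. Genes were taken as members if their log2 expression value exceeded 4 in at least 2 arrays, which kept 9973 of 17306 probe sets, 9545 of them with a gene symbol. A difference of 1 on this scale is a 2-fold change, and a value under 4 is near the array's background, where the size of a difference is inexact. Every difference given is P18 minus P0, with the standard error (SE) of the fit and a p-value adjusted over all 9973 genes. Genes with an adjusted p under 0.05 are said to be called.

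Sympathetic neurons arise from the neural crest, and their precursors keep dividing after they have begun to make noradrenaline. Around birth division ends, axons reach their targets, and over the following weeks synapses from the spinal cord mature while satellite glia wrap each cell body. Alk is expressed while these neuroblasts divide, and activating forms of it are found in neuroblastoma, a childhood tumour of this lineage.

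No batch, litter or date is given in the labels, so that age and batch cannot be told apart, and whether each array came from separate animals is not said. The p-values therefore measure the spread between these arrays. Over the series the array medians lay at 4.41 to 4.68. Each P18 Het array correlated at 0.993 with the other across the kept genes, and the P0 Het arrays at 0.984 to 0.990 with the rest of their group. The P18 Het arrays differed by a median of 0.12, and 55 genes differed between them by more than 1. P0 Het replicates 6 and 8 held more skeletal muscle transcripts than the other Het arrays. The sex-linked gene Xist read 11.3 and 2.3 in P18 Het replicates 4 and 5, and 2.3, 12.1, 12.2 and 2.3 in P0 Het arrays. By this gene the 2 P18 Het arrays differed in sex, so a fit without 1 of them also changes the sex of that group. The part of sex in the results was not tested. The ganglion labels were met by Th, Dbh, Ddc, Slc18a2, Phox2a and Isl1, all of them above 11 in every Het array, while Hand2, also a transcription factor of this lineage, lay at 4.50 to 4.61.

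The change with age covered 47.8% of the genes. Of 9973 genes, 4769 were called, 2222 higher (22.3%) and 2547 lower (25.5%) in P18 Het ganglia, and 2147 of these changed at least 2-fold (1127 higher and 1020 lower). A change of at least 8-fold was called for 135 genes that rose and 110 that fell. The counts of list members given below are to be read beside the 22.3% higher and 25.5% lower over all genes. In 7238 genes, 72.6% of all, the P18 Het and P0 Het arrays did not overlap. The median difference over all genes was -0.04, and the first principal component of the 6 Het arrays carried 86.7% of their variance. With 2 arrays against 4, no exact permutation test of a single gene can reach a two-sided p below 0.0667, so calls rest on the spread that the fit shares across genes and groups.

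The largest rise was that of Htr3a, which encodes a subunit of the serotonin-gated cation channel. Htr3a read 11.79 and 11.65 in the P18 Het arrays, against 4.83, 3.28, 3.65 and 3.11 in the P0 Het arrays, a difference of 8.001 ± 0.97 (SE, adjusted p = 8.15e-06). Both P18 arrays stood far above all P0 arrays, 3 of which lay near background. Avil, which encodes the actin-binding protein advillin of peripheral neurons, read 12.14 and 12.12 at P18, against 3.91, 4.08, 4.55 and 4.12 at P0 (difference 7.96 ± 0.96). Kcna1, which encodes a voltage-gated potassium channel subunit, read 9.90 and 9.63 at P18, against 2.53, 2.42, 2.85 and 2.68 at P0 (difference 7.15 ± 0.69). The cholecystokinin receptor gene Cckar read 9.39 and 9.48 at P18, against 2.82, 2.76, 2.69 and 2.79 at P0 (difference 6.67 ± 0.58). The largest rises and falls were taken only from genes whose arrays did not overlap, so their separation is no result of its own. The P0 values of Kcna1 and Cckar were at background.

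Other large rises were those of the secreted dermokine gene Dmkn (7.71), the lipid carrier gene Apod (7.10), the tetraspanin gene Tspan8 (6.59), Lynx1 (6.55), whose product modulates nicotinic receptors, Slc35d3 (6.18) and the growth factor gene Fgf1 (5.67). Gpr37l1, which encodes an orphan receptor found on glia, rose by 5.58, and Efemp1, which encodes a fibulin of the extracellular matrix, by 5.25. The adjusted p of these genes lay between 6.15e-11 for Gpr37l1 and 4.85e-07 for Efemp1.

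The largest fall was that of H19, an imprinted fetal non-coding RNA, which read 5.03 and 4.79 in the P18 Het arrays, against 12.18, 12.32, 11.84 and 12.08 in the P0 Het arrays (difference -7.20 ± 0.31, adjusted p = 1.22e-10). Agtr2, the gene of the angiotensin receptor that predominates in fetal tissue, read 4.85 and 3.79 at P18, against 10.85, 11.05, 10.74 and 11.01 at P0 (difference -6.59 ± 0.28). The matrix gene Tnc, encoding tenascin C, read 5.54 and 4.95 at P18, against 10.87, 11.03, 10.80 and 10.77 at P0 (difference -5.62 ± 0.32). The P18 arrays of these genes were low but, apart from 1 array of Agtr2, above 4, so their falls were measured on both sides. Ly6h (-5.97), which encodes a surface protein of neurons, the amino acid transporter gene Slc38a4 (-5.58), the transcription factor gene Tox3 (-5.52) and Doc2a (-5.20), whose product senses calcium in exocytosis, fell to values under 4 at P18. The remaining members of this group, Top2a, Rrm2, Cdk1, Nusap1 and Pbk, are genes of dividing cells and are described next.

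**Figure D1:**
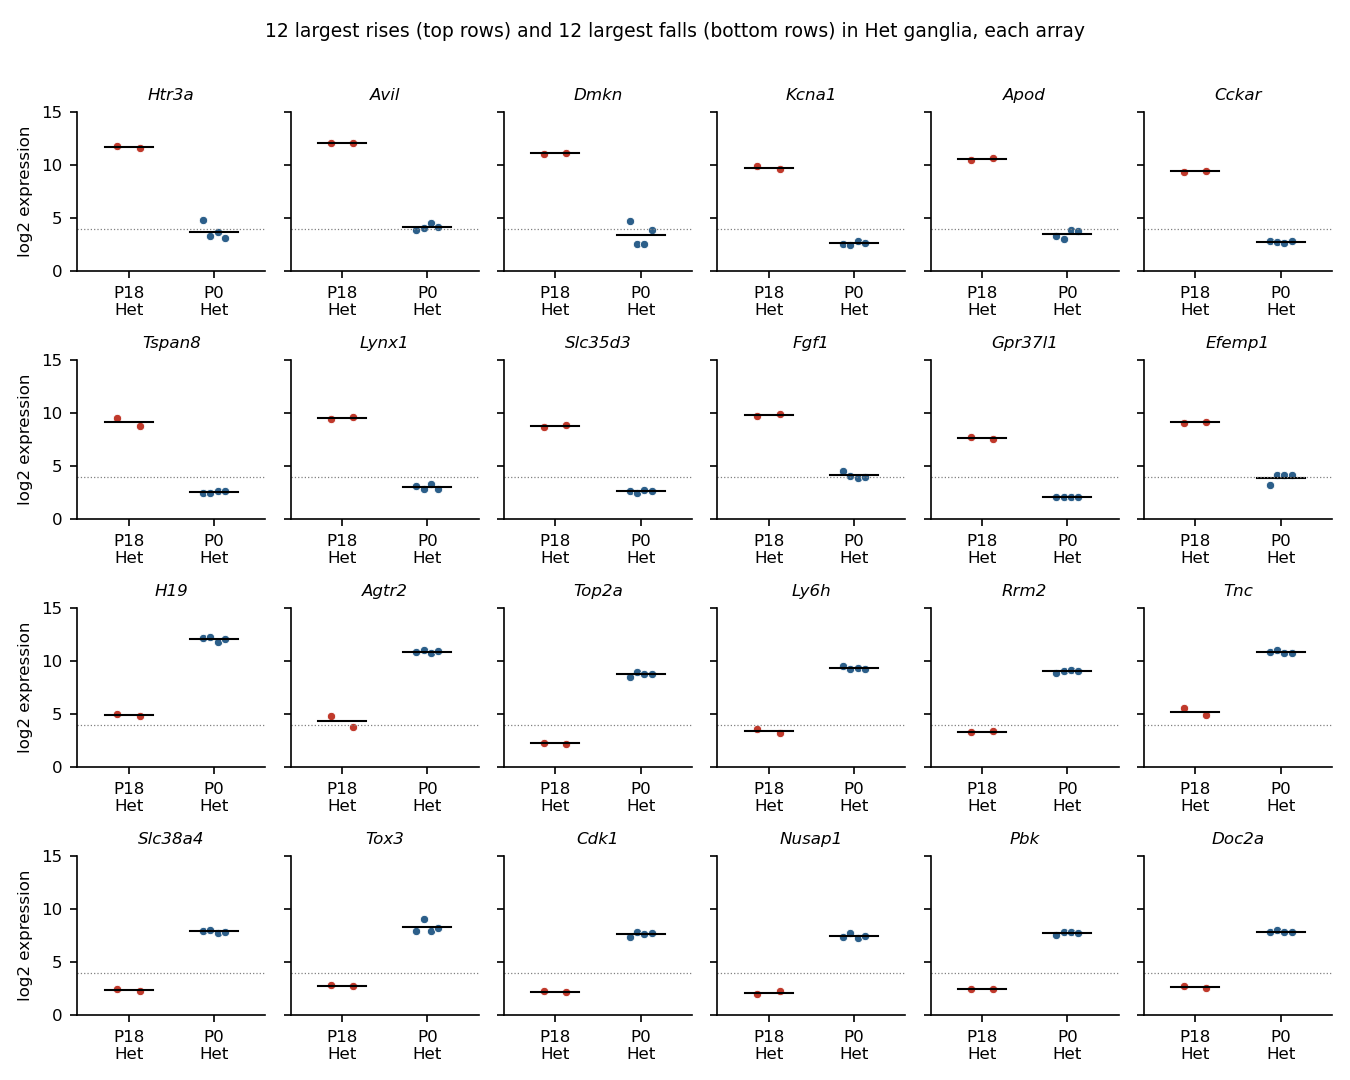
Log2 expression of the 12 genes with the largest rises and the 12 with the largest falls, with P18 Het arrays (red, 2 points) left of P0 Het arrays (blue, 4 points), group means as black lines and a dotted line at 4, under which values are near background. The genes were chosen among those whose arrays did not overlap, so the groups are apart in every panel by that choice. The low group mostly lies at or under the dotted line, as for Kcna1 at P0 (2.42 to 2.85) and Top2a at P18 (2.18 and 2.31).

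Genes of cell division were low in P18 Het ganglia. Of 43 kept members of a mitosis list, 40 were called lower and 1 higher, with a median difference of -3.002, against 25.5% called lower and a median of -0.04 over all genes. The median level of the kept members was 2.604 in P18 Het and 2.673 in P18 Wt arrays. Members at such levels passed the filter of 4 through the P0 arrays, where they were high. The count is therefore description only. Top2a, which encodes the topoisomerase that untangles chromosomes, read 2.31 and 2.18 at P18, against 8.53, 8.99, 8.82 and 8.81 at P0 (difference -6.54 ± 0.22, adjusted p = 1.46e-11). Cdk1, the kinase that starts mitosis, read 2.23 and 2.22 at P18, against 7.38, 7.87, 7.64 and 7.76 at P0 (difference -5.44 ± 0.24). Both genes were at background in both P18 arrays, so the sizes of their falls are inexact. The spindle protein gene Nusap1 (-5.35), the kinetochore gene Spc25 (-5.18), the cyclin gene Ccnb2 (-4.82), the anaphase activator gene Cdc20 (-4.65) and the survivin gene Birc5 (-4.56) fell likewise. The single rise was that of Pttg1, encoding securin, an inhibitor of sister chromatid separation, with 9.09 and 9.10 at P18, against 7.53, 7.85, 7.39 and 7.39 at P0 (difference 1.55 ± 0.17, adjusted p = 2.45e-06). The median level of the 46 list members on the arrays lay at 2.62 and 2.57 in P18 Het arrays, against 5.80 to 6.12 in P0 Het arrays. In whole ganglia, fewer cells of a type and less RNA per cell cannot be told apart.

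The promoters of these genes are shown because genes of mitosis are known to share a pair of short elements, the CCAAT box, bound by NF-Y, and the cell cycle homology region, bound by repressor complexes in cells that do not divide. Promoters were taken from RefSeq (build GRCm38.p6) as 250 bases before to 50 after each start site. The motifs CCAAT (or ATTGG) and TTTGAA (or TTCAAA) were searched on both strands, and matches of both may share bases. Of the 40 mitosis genes that fell, 33 had 36 promoters in the table and 7 had none there. CCAAT was found in 28 of the 36 (77.8%), against 37.4% of all 32841 promoters, and TTTGAA in 24 (66.7%), against 17.9%. Both stood together in 22 (61.1%), against 6.95% of all promoters. A match is a string of letters and no evidence of binding. The 250 bases upstream of the start are given 5′ to 3′ for Top2a (chr11:99024190-99024439, minus strand) and Cdk1 (chr10:69352913-69353162, minus strand), which fell furthest of the genes here that hold both elements, and for Ect2 (chr3:27153855-27154104, minus strand), 1 of 2 mitosis genes whose fall was called different between genotypes. The call of Ect2 was kept in only 2 of 13 fits that left out 1 array. Kif2c, the other gene, held TTCAAA but no CCAAT box. A link of the motifs to the genotype was not tested. Capitals mark the motif letters.
Top2a: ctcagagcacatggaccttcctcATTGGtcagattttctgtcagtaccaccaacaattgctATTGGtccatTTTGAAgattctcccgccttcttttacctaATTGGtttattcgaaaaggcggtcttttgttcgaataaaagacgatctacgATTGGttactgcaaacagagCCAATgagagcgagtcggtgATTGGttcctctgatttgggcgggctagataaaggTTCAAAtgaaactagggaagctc
Cdk1: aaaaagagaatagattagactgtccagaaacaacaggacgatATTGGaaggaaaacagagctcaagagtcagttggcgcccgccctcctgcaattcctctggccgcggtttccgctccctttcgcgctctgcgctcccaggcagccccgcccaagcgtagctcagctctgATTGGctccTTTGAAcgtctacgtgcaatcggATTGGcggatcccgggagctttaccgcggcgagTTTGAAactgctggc
Ect2: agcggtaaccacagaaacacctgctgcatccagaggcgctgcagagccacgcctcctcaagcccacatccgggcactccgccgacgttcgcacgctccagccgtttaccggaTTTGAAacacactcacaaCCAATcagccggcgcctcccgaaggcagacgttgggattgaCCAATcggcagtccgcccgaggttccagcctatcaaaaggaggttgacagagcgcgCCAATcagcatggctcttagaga

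DNA synthesis genes fell with the genes of mitosis. Of 29 kept members of a replication list, 27 were called lower and none higher (none at an unadjusted p under 0.05 nor by the t-test of the study's methods), with a median of -1.65, and the 2 others, Fen1 and Rfc2, differed by -0.52 and -0.24. The ribonucleotide reductase gene Rrm2 read 3.29 and 3.39 at P18, against 8.90, 9.06, 9.15 and 9.11 at P0 (difference -5.71 ± 0.18, adjusted p = 7.19e-12). Cdt1, which licenses origins, fell by 4.00, the polymerase gene Pole by 3.06 and the helicase genes Mcm2 and Mcm5 by 2.72 and 2.64. Among 15 genes of entry into S phase, 9 fell and 1 rose. Ccna2 fell by 4.72, Ccnd1 by 2.23 and Cdk4 by 2.09, and Ccnd1 remained high, at 9.80 and 9.34 at P18, against 11.71, 11.84, 11.90 and 11.75 at P0. The cyclin gene Ccne1 rose by 1.15, a call lost without P18 Het replicate 4 (0.87, adjusted p = 0.111). Of 12 cell cycle inhibitors, Btg1 (-2.78), the imprinted inhibitor gene Cdkn1c (-2.43), Rbl1 (-1.97) and Rb1 (-0.40) fell and Rbl2 rose by 0.56. The call of Rbl2 was lost without either P18 Het array (adjusted p = 0.0516 and 0.0588) and that of Rb1 without P18 Het replicate 5 (adjusted p = 0.0794).

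Genes of the growing neuroblast also fell. Of 20 kept members, 16 were called lower and 1 higher, with a median difference of -1.12. Sox11, a transcription factor of immature neurons, read 6.46 and 5.93 at P18, against 9.73, 10.05, 9.66 and 9.68 at P0 (difference -3.58 ± 0.23). Mycn, the oncogene of neuroblastoma, read 7.29 and 7.25 at P18, against 9.39, 9.64, 9.61 and 9.42 at P0 (difference -2.25 ± 0.19, adjusted p = 1.8e-07). No array overlapped between the groups for either gene, and Mycn at P18 remained well above background. The fetal RNA-binding protein gene Igf2bp3 fell by 5.07 to background, the microtubule gene Dcx of migrating neurons by 3.71, Sox4 by 2.15 and Gap43, a growth cone gene, by 1.32. Tubb3, the neuronal tubulin gene, fell by 0.38. The rise was that of Ptn (0.77), which encodes the secreted growth factor pleiotrophin.

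Of 20 kept genes of noradrenergic identity, 7 were called higher and 8 lower, and the others, among them the transcription factor genes Hand2 (0.05), Gata2 (0.29) and Eya1 (-0.13), were not called. Th, the enzyme that limits catecholamine synthesis, read 12.94 and 12.90 at P18, against 11.81, 11.66, 11.88 and 11.74 at P0 (difference 1.14 ± 0.15, adjusted p = 1.64e-05). Dbh, which makes noradrenaline from dopamine, rose by 1.03, the vesicular transporter gene Slc18a2 by 1.27, Ddc by 0.72 and the degrading enzyme genes Maoa and Maob by 0.92 and 2.76. Npy, the cotransmitter of these neurons, read 13.54 and 13.61 at P18, against 9.16, 8.99, 8.92 and 9.07 at P0 (difference 4.54 ± 0.39, adjusted p = 1.87e-07). The arrays were apart for each of these genes, and Npy had the largest rise of the list. Gata3 read 8.90 and 8.84 at P18, against 11.004, 10.99, 11.03 and 10.89 at P0 (difference -2.10 ± 0.14). Insm1 (-3.67), Tfap2b (-1.44), Hmx1 (-1.31), Isl1 (-0.90) and Phox2a (-0.63), also transcription factors, and the granule protein gene Chgb (-1.64) fell. The noradrenaline transporter gene Slc6a2 differed by 0.27 and was not called (adjusted p = 0.395, and 0.0238 in the compared arrays alone). Among 11 kept genes of chromaffin and carotid body cells, which are kin to these neurons, 3 rose and 4 fell, against 22.3% and 25.5% over all genes. Pcsk1, which encodes a protease of prohormones, was among the rises (3.14). Pnmt, the adrenaline-making enzyme gene, differed by -0.71 without a call.

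Peptide and cholinergic genes changed in both directions. Of 12 neuropeptide precursors, 4 were called higher and 2 lower, against 22.3% and 25.5% over all genes, and the median difference was -0.005. Counts this small do not set the list apart from all genes. The somatostatin gene Sst read 2.86 and 2.56 at P18, against 7.57, 7.27, 6.14 and 6.88 at P0 (difference -4.26 ± 0.95, adjusted p = 0.00171), and Cartpt, the CART precursor, fell by 1.72. Sst lay at background at P18 and in a range of more than 1 unit at P0. Besides that of Npy, the precursor genes of galanin (Gal, 1.83), PACAP (Adcyap1, 2.25) and calcitonin gene-related peptide (Calcb, 2.48) rose, and the call of Calcb was lost without either P18 Het array (2.40 and 2.56, adjusted p = 0.0832 and 0.066). Vip read 12.72 and 12.59 at P18, against 12.42, 11.04, 11.23 and 11.75 at P0. The P18 arrays of Vip lay above the P0 arrays, but the difference of 1.04 ± 0.87 was not called (adjusted p = 0.355, and 0.0419 in a fit of the 6 compared arrays alone). Of 5 kept genes of cholinergic sympathetic neurons, the acetylcholinesterase gene Ache rose by 1.70, its membrane anchor gene Prima1 fell by 1.90 and Sst, which is also on this list, fell as given.

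Alk itself, the targeted gene, was lower at P18. It read 7.74 and 7.60 in the P18 Het arrays, against 9.23, 9.06, 9.12 and 9.12 in the P0 Het arrays (difference -1.46 ± 0.21, adjusted p = 3.97e-05), with no overlap. The probes do not separate the mutant from the normal transcript, so these levels are no check of genotype. Of 9 kept genes of Ret, Alk and neurotrophin signalling, 4 were called higher and 4 lower. Ltk, the receptor related to Alk, read 8.36 and 8.77 at P18, against 4.56, 3.70, 4.23 and 4.53 at P0 (difference 4.31 ± 0.56), so its direction was opposite to that of Alk. The ligand genes of heparin-binding growth factors were split, Mdk falling by 1.84 and Ptn rising by 0.77. Ret, the receptor of GDNF family ligands, read 10.11 and 10.25 at P18, against 10.32, 9.94, 9.99 and 10.10 at P0. The groups overlapped and the difference of 0.09 ± 0.28 was not called (adjusted p = 0.825). Gfra3, the coreceptor for artemin, fell by 2.19 and Bdnf by 2.14, while the neurotrophin receptor gene Ngfr rose by 1.97. The rise of Ntrk2 by 0.66, also a neurotrophin receptor gene, was lost without P18 Het replicate 4 (0.41, adjusted p = 0.289).

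Neurofilament genes changed by member. Of 14 kept genes of the mature cytoskeleton, 5 fell and 1 rose. Nefh, the heavy subunit, read 10.33 and 10.19 at P18, against 8.81, 8.78, 8.67 and 8.61 at P0 (difference 1.54 ± 0.19). Nefm, the medium subunit, read 12.44 and 12.41 at P18, against 14.19, 14.13, 14.15 and 13.99 at P0 (difference -1.69 ± 0.20). The light subunit gene Nefl fell by 0.49 and the internexin gene Ina by 2.08, and the microtubule gene Mapt by 1.05. Peripherin (Prph) differed by -0.16 and was not called.

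Synaptic genes mostly rose. Of 22 kept genes of vesicles and exocytosis, 16 were called higher and 1 lower, with a median of 0.92, against 22.3% called higher over all genes. Cplx2, which encodes a complexin that clamps vesicle fusion, read 10.90 and 10.94 at P18, against 7.50, 7.10, 7.61 and 7.30 at P0 (difference 3.54 ± 0.23, adjusted p = 9.6e-09). The calcium sensor gene Syt1 rose by 2.24, Rph3a by 2.25, Syn2 by 1.85, Syn1 by 1.34 and Snap25 by 0.95. Rims2, a gene of the active zone, fell by 1.47. Among 13 ligand-gated channels 7 rose and 1 fell. The nicotinic subunit genes Chrna3 and Chrnb4, which carry transmission in these ganglia, rose by 1.27 and 1.51, and Htr3b, Glrb and Gria3 by 2.10, 2.80 and 2.94. Gria4 fell by 0.90, and Chrna5 differed by 0.09 without a call.

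Voltage-gated channel genes changed in both directions. Of 16 potassium channel subunits, 9 rose and 3 fell, with a median of 0.96. Beside Kcna1, the auxiliary subunit genes Kcnip4 and Kcnab2 rose by 3.79 and 2.53 and Kcnk1 by 2.02. Kcnip1, a relative of Kcnip4, read 3.27 and 3.38 at P18, against 7.56, 7.53, 7.64 and 7.59 at P0 (difference -4.26 ± 0.38). It fell to background, as did Kcnmb2 (-3.50), while Kcnma1 fell by 1.17. Of 13 sodium and calcium channel subunits, 4 rose and 4 fell, shares not far from the 22.3% and 25.5% over all genes. Scn1a read 7.48 and 7.51 at P18, against 5.36, 5.27, 5.36 and 5.34 at P0 (difference 2.16 ± 0.18), and Scn2b rose by 2.01. Scn2a and Scn3a, prominent in young neurons, and Scn3b fell by 0.73, 0.69 and 0.85.

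Axon guidance genes fell more often than they rose, with 9 of 18 called lower and 2 higher. The semaphorin receptor gene Nrp1 read 9.82 and 9.60 at P18, against 11.78, 11.82, 11.72 and 11.71 at P0 (difference -2.05 ± 0.09, adjusted p = 1.21e-10). Slit2 fell by 1.97, Plxna2 by 1.49 and Dcc by 1.44. The rises were those of Robo1, a receptor for Slit proteins (2.82), and Epha5 (0.37), whose call was lost without either P18 Het array (adjusted p = 0.141 and 0.0659). Of 11 regulators of apoptosis, 5 fell and 2 rose, against 25.5% and 22.3% over all genes. Hrk, a gene that promotes death of neurons deprived of trophic factor, fell by 1.07 and Apaf1 by 0.96, and the survival gene Bcl2 rose by 0.91. Without P18 Het replicate 5, 3 of these regulators were called lower, and without it, P18 Het replicate 4 or P0 Het replicate 6, 1 was called higher.

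Many glial genes rose, while their summed level changed little. Of 13 kept genes of Schwann precursors and satellite glia, 9 were called higher and 1 lower, with a median of 1.24, against 22.3% called higher over all genes. The summed level of the 18 list members on the arrays was 14.17 and 13.99 at P18, against 13.81 to 13.98 at P0. Their median level was 6.79 and 6.70, against 4.48 to 4.63. The glial markers Sox10 (3.28 to 3.95) and Erbb3 (2.12 to 3.04) lay near background in all Het arrays. S100b, a calcium-binding protein of glia, read 7.61 and 7.46 at P18, against 3.46, 3.37, 3.57 and 3.32 at P0 (difference 4.10 ± 0.54, adjusted p = 1.29e-05). Kcnj10, the potassium channel of satellite glia, rose by 1.46, Lgi4 by 3.47 and the glutamine synthetase gene Glul by 1.24. Fabp7, high in immature glia, read 12.53 and 11.77 at P18, against 13.14, 13.39, 13.26 and 13.04 at P0, and its fall of 1.05 ± 0.30 was no longer called without P18 Het replicate 5 (-0.67, adjusted p = 0.185). Of 12 myelin genes, 6 rose and 1 fell. Mbp, myelin basic protein, read 10.19 and 10.003 at P18, against 7.16, 7.25, 7.33 and 7.08 at P0 (difference 2.89 ± 0.68, adjusted p = 0.00255), and Gjc3, Pmp22 and Cnp rose by 2.56, 1.21 and 1.23. The P18 arrays lay above the P0 arrays in each of these genes.

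Matrix genes fell, with 20 of 28 called lower, 3 higher and a median of -1.67. Besides Tnc, the fibrillin gene Fbn2 of fetal microfibrils fell by 4.31, Postn by 3.82, the fibronectin gene Fn1 by 2.96 and the fibrillar collagen genes Col1a1 and Col3a1 by 2.43 and 1.90. Fbn2 read 5.09 and 4.98 at P18, against 9.44, 9.24, 9.33 and 9.36 at P0, with no overlap. The elastin gene Eln read 2.23 and 2.21 at P18, against 7.30, 2.69, 8.40 and 8.08 at P0. P0 Het replicate 6 stood near the P18 values, and the call of Eln (-4.40 ± 1.27) was lost without either P18 Het array (adjusted p = 0.0611 and 0.0623). Decorin (Dcn), a small proteoglycan of mature matrix, rose by 1.86, Lum by 1.03 and Sparc by 0.59. Sparc was lost without either P18 Het array (adjusted p = 0.12 and 0.0665) and Lum without replicate 4 (adjusted p = 0.0953). Of 20 imprinted and fetal growth genes, 15 fell and 2 rose, with a median of -1.43. The growth factor gene Igf2 read 4.73 and 5.31 at P18, against 8.53, 8.14, 8.37 and 8.45 at P0 (difference -3.35 ± 0.50). Dlk1, Igf1, Igfbp5 and Grb10 fell by 2.99, 2.90, 2.18 and 1.88, and Peg3, an imprinted gene that neurons express, rose by 0.83.

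Antigen presentation and interferon response genes rose, with 13 of 18 called higher and a median of 1.60, and none was called lower, at an unadjusted p under 0.05 or by the methods' t-test. The other 5, Mx1, Irf9, Bst2, Stat2 and Ifitm3, differed by -0.20 to 0.64. Psmb8, a subunit of the immunoproteasome, read 7.23 and 7.51 at P18, against 3.26, 2.90, 3.67 and 3.24 at P0 (difference 4.10 ± 0.27, adjusted p = 8.88e-09). H2-K1, a class I histocompatibility gene, read 9.97 and 10.11 at P18, against 6.46, 5.71, 6.59 and 6.42 at P0 (difference 3.74 ± 0.39). Ifit1, an antiviral gene, rose by 5.05, and at P0 it lay at background in 3 arrays and at 4.65 in replicate 7, where Mx1 was also highest. The 4 kept complement genes rose, among them C1s1 (1.82) and the inhibitor gene Serping1 (1.68). Macrophage markers changed in both directions. Of 17 kept markers, 6 fell, among them the microglia and macrophage genes Tyrobp (-1.42) and C1qb (-1.37), and 2 rose, Adgre1 (1.80) and the class II chain gene Cd74 (2.81). These counts stand beside 25.5% lower and 22.3% higher over all genes. The summed level of the 20 markers was 10.51 and 10.63 in P18 Het arrays, against 10.50 to 11.08 in P0 Het arrays, and overlapped. Their median level also overlapped (5.44 and 5.40, against 5.23 to 5.76).

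**Figure D2:**
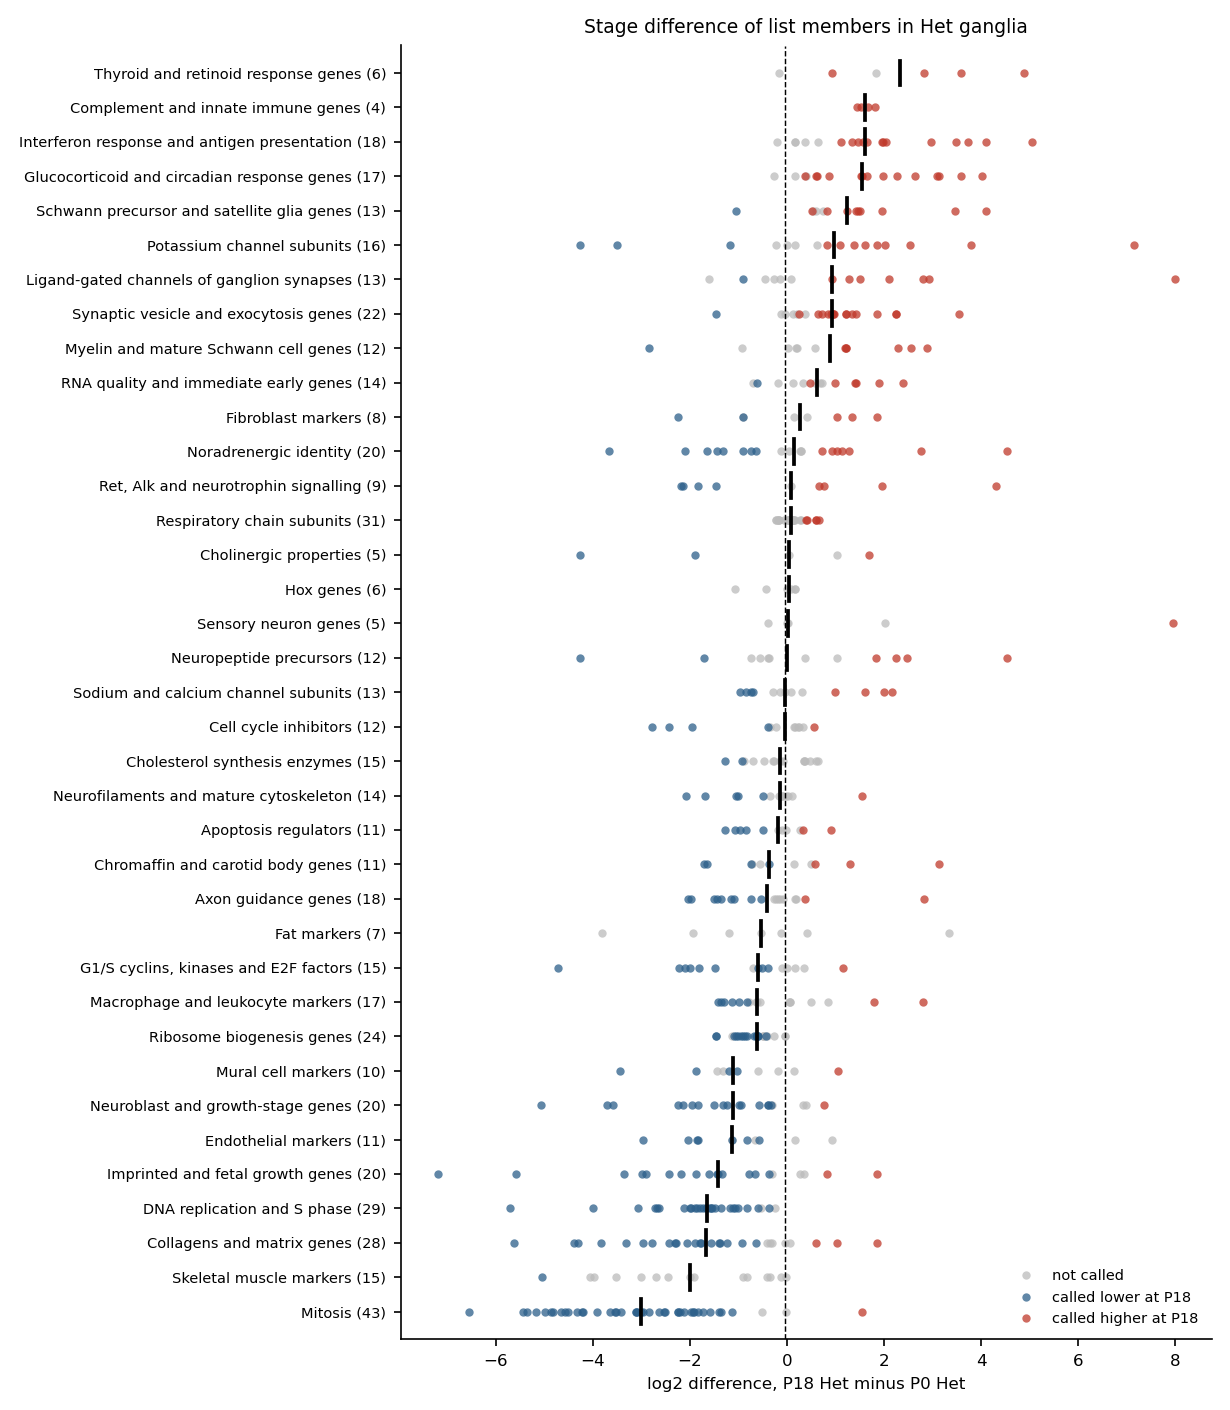
Log2 difference (P18 Het minus P0 Het) of each kept member of the gene lists with 4 or more members, with the number of members in brackets, red for called higher, blue for called lower and grey for not called. Black bars are list medians and the dashed line is the median over all genes (-0.04), so that the mitosis list (median -3.002) lies at the foot and lists such as interferon response (1.60) near the top.

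Genes that respond to glucocorticoids, thyroid hormone and the clock rose. Of 17 kept genes of glucocorticoid and circadian response, 14 were called higher and none lower (none at an unadjusted p under 0.05, and 1, Arntl, by the methods' t-test), with a median of 1.55, and the others, Arntl, Cdkn1a and Dusp1, differed by -0.26, 0.17 and 0.38. Klf9, a target of thyroid hormone and glucocorticoids, read 9.87 and 9.97 at P18, against 6.20, 6.12, 6.47 and 6.53 at P0 (difference 3.59 ± 0.21, adjusted p = 2.18e-09). Klf15 rose by 4.03, the clock output gene Dbp by 3.13 and Bhlhe40, Mt1 and Nr1d2 by 3.09, 2.65 and 2.28. The hour at which ganglia were taken is not given in the sources used here. Of 6 kept thyroid and retinoid response genes 4 rose, among them the retinoic acid-binding protein gene Crabp1, which read 9.73 and 9.89 at P18, against 5.03, 4.85, 5.28 and 4.52 at P0, and Rxrg (2.83). Immediate early and stress genes, which also follow the handling of tissue, rose in 6 of 14 kept members and fell in 1. Nr4a1 rose by 2.40 and Ier3 by 1.90, while Fos (-0.70) and Jun (0.13) were not called. The part of handling in the results was not tested.

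Genes of ribosome production fell, with 16 of 24 called lower and a median of -0.63, and none was called higher, at an unadjusted p under 0.05 or by the methods' t-test. Polr1b, a subunit of RNA polymerase I, fell by 1.47, the helicase gene Ddx21 by 1.46 and the nucleolar genes Nop58 and Ncl by 1.08 and 0.95. Without P18 Het replicate 4 the count was 10. Of 31 respiratory chain subunits, 5 rose by 0.40 to 0.66 and none fell (none at an unadjusted p under 0.05, and 1 by the methods' t-test), with a median of 0.09, fewer of them called higher than the 22.3% over all genes, and without either P18 Het array 1 was called. Cholesterol synthesis enzymes were mostly not called. Of 15 kept, Cyp51 (-1.28) and Tm7sf2 (-0.92) fell, only 1 of them without either P18 Het array, while without P0 Het replicate 6 there were 2 that rose.

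Markers of other cells in the tissue were followed in each array. Of 11 kept endothelial markers 7 fell and none rose (none at an unadjusted p under 0.05 or by the methods' t-test). Kdr, the VEGF receptor gene, fell by 2.96 and Tek by 2.05, and the summed level of 14 markers was 8.85 and 8.92 at P18, against 9.01 to 9.80 at P0. Of 10 mural cell markers 4 fell and 1 rose. Acta2, smooth muscle actin, read 6.83 and 5.64 at P18, against 10.24, 7.18, 10.69 and 10.58 at P0 (difference -3.44 ± 0.95). Its call was lost without P18 Het replicate 5 (-2.84, adjusted p = 0.101), which left 2 mural markers called lower. Fibroblast markers rose in 3 (Lum, Pi16 and Dcn) and fell in 2 (Dpt and Cd34) of 8, and Dpt was lost without P18 Het replicate 5 (adjusted p = 0.193) or P0 Het replicate 8 (adjusted p = 0.0569) and Pi16 without P18 Het replicate 5 (adjusted p = 0.0706). Their summed level, most of it Dcn, was 13.46 and 13.61 at P18, against 11.70 to 12.06 at P0, while the median level of the same list was lower, 4.39 and 4.74 at P18, against 4.88 to 5.96 at P0.

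Skeletal muscle transcripts, which belong to no ganglion cell, were in some arrays. The summed level of 18 muscle markers was 6.93 and 6.82 in P18 Het replicates 4 and 5, against 8.95, 12.84, 7.94 and 10.98 in P0 Het replicates 5, 6, 7 and 8. Actin alpha 1 of skeletal muscle (Acta1) read 4.17 and 3.77 at P18, against 7.85, 11.65, 6.82 and 9.79 at P0, with the highest values in replicates 6 and 8. Of 15 kept muscle markers only Acta1 was called (-5.06 ± 1.94, adjusted p = 0.0431), and not after leaving out P0 Het replicate 6 or 8 or either P18 Het array (adjusted p = 0.0761 to 0.182). None of 7 fat markers was called (1 lower at an unadjusted p under 0.05, and 1 higher by the methods' t-test), and their summed level of 10.24 and 11.39 at P18 overlapped with 10.70 to 12.60 at P0. Of 5 kept genes of sensory neurons Avil was called, while Pou4f1, a defining factor of sensory neurons, lay at background in all Het arrays. The summed level of the sensory neuron list was 12.16 and 12.14 at P18, against 5.86 to 6.24 at P0. At P18 it was almost all Avil (12.14 and 12.12), so the sum is no measure of sensory neurons. No marker of thymus or of cartilage and epithelium passed the filter. Without P0 Het replicates 6 and 8, a choice made after seeing these values, 3981 genes were called, 39 mitosis and 23 replication genes among them lower and 14 synaptic genes higher.

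**Figure D3:**
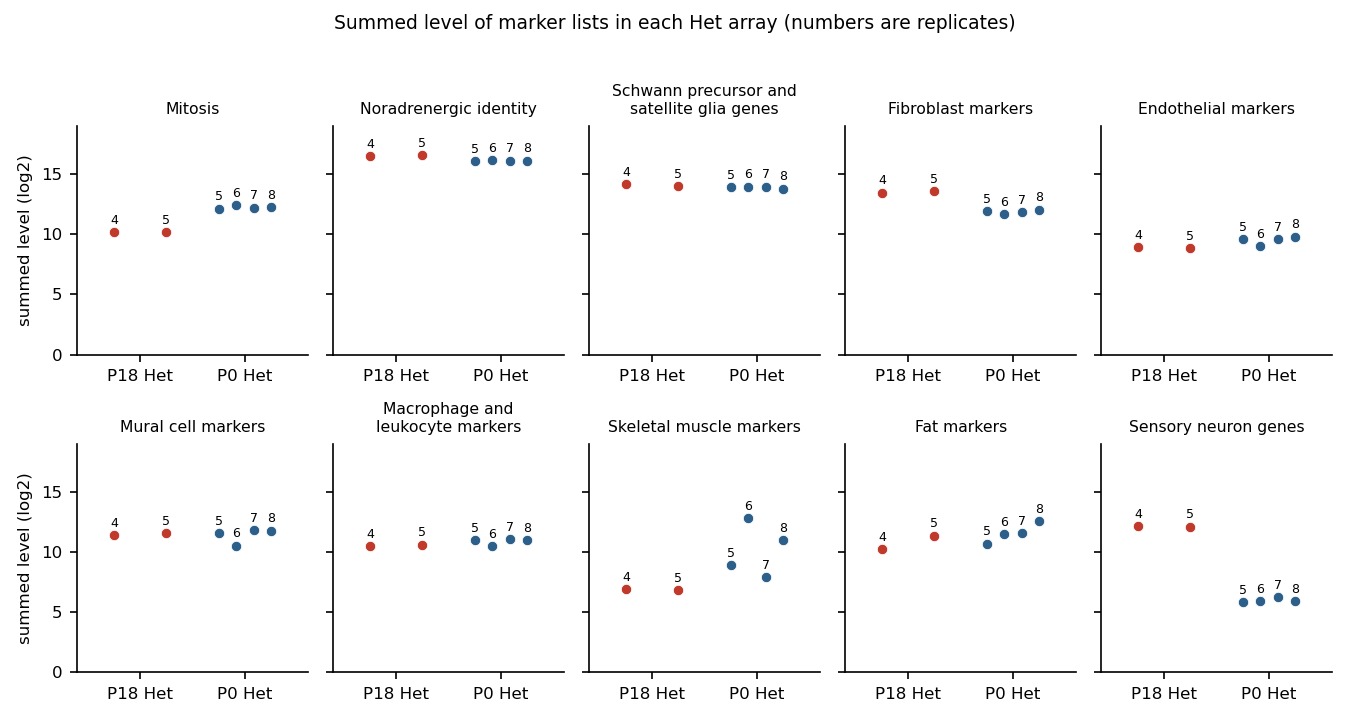
Summed level (log2 of the sum of linear values) of 10 gene lists in each Het array, P18 Het (red) left of P0 Het (blue), with the replicate number above each point. Mitosis is lower in both P18 arrays (10.16 and 10.19) than in the P0 arrays (12.13 to 12.42), while skeletal muscle spreads from 7.94 to 12.84 within the P0 group. The sum of the sensory neuron genes at P18 is almost all Avil.

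The change with age in Het ganglia was then set against that in Wt ganglia, which rests on other arrays. All P0 Wt arrays held more fat transcripts than the P0 Het arrays, and some of them more muscle or sensory neuron transcripts. In muscle, P0 Wt replicate 4 lay below every P0 Het array (7.94 to 12.84). The summed level of skeletal muscle markers was 15.18, 14.29, 12.19 and 7.45 in P0 Wt replicates 1 to 4, that of fat markers 12.84 to 13.81, and that of genes of sensory neurons 10.64 and 10.47 in replicates 1 and 4, where Pou4f1 read 5.94 and 5.40. The sensory sum was also high in P18 Wt arrays (11.76 to 12.15), where Avil read 11.73 to 12.13 and Pou4f1 lay at background (2.57 to 2.60). Myelin genes stood at 14.24 in P0 Wt replicate 3 and at 12.35 to 13.06 in the other P0 Wt arrays, against 12.11 to 12.41 in P0 Het arrays. Among P18 Wt arrays replicate 1 held the most muscle (11.38) and fat (12.55). The part of these transcripts in the differences between genotypes was not tested, apart from leaving out P0 Wt replicates 1 and 4, chosen for their sensory neuron genes after the data were seen. In Wt, 5480 genes were called (54.9%), 2783 higher (27.9%) and 2697 lower (27%), and the arrays of 57.7% of genes did not overlap between P18 and P0. This share is of 3 arrays against 4 and cannot be compared with the Het share, of 2 against 4, where fewer arrays overlap less easily. Both genotypes called 4004 genes, and 4001 of these went the same way, 83.9% of the Het calls and 73.0% of the Wt calls. Across genes the differences correlated (Pearson r = 0.901, Spearman rho = 0.884), a description only, since genes are not independent and a batch that followed age would be shared. The 3 genes called in opposite directions were Tshz2 (0.76 in Het and -0.66 in Wt), Csgalnact1 (0.90 and -0.70) and Slc24a3 (0.96 and -0.81). Each was lost in Het without either P18 Het array, and their differences between genotypes were not called (adjusted p = 0.0936 to 0.109).

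A test of the difference itself, the change in Het minus the change in Wt, called 14 genes (0.14%), 8 positive (0.0802%) and 6 negative (0.0602%), 12 with a symbol. A total of 989 genes had an unadjusted p under 0.05. Without P0 Wt replicates 1 and 4 all 14 remained called, among 56 genes, and without P0 Het replicates 6 and 8, which held the most muscle of the Het arrays, 3 were called. The imprinted amino acid transporter gene Slc38a4 read 2.42 and 2.28 in P18 Het and 7.96, 8.08, 7.80 and 7.88 in P0 Het arrays, and 2.39, 2.32 and 2.62 in P18 Wt and 5.91, 5.59, 5.34 and 5.35 in P0 Wt arrays. Both genotypes were at background at P18, and at birth every Het array was above every Wt array. Slc38a4 fell by 5.58 in Het and by 3.10 in Wt (difference of changes -2.47 ± 0.25, adjusted p = 0.000533). Antxr2, which encodes an anthrax toxin receptor that binds matrix proteins, read 9.81 and 9.89 in P18 Het and 7.97, 8.15, 7.86 and 8.07 in P0 Het arrays, and 9.51, 9.57 and 9.62 in P18 Wt and 9.33, 8.92, 8.97 and 9.27 in P0 Wt arrays (difference of changes 1.40 ± 0.18, adjusted p = 0.00439). The Het arrays of Antxr2 lay below the Wt arrays at birth and above them at P18. Slc38a4 was called whichever array was left out, and Antxr2 in all but 1 case, without P18 Het replicate 5 (1.36, adjusted p = 0.0632).

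Of the genes of division, Ect2, which acts in cytokinesis, and Kif2c, a kinesin of the centromere, had called differences of changes of -1.37 and -1.08. Ect2 fell by 4.87 in Het and by 3.50 in Wt. Kif2c read 3.83 and 3.82 in P18 Het and 4.96, 4.96, 4.96 and 4.97 in P0 Het arrays, while in Wt its difference was -0.06 and not called. The Wt arrays of Kif2c read 4.12 to 4.50, so all its values lay close to background. Shcbp1, also a gene of dividing cells, fell by 3.91 in Het and by 2.89 in Wt (difference of changes -1.02). Over the mitosis list 42 of 43 members had a negative difference of changes, against 57.4% of all genes, with these 2 members called, and the median was -3.002 in Het and -1.59 in Wt. The list's median level was 2.62 and 2.57 in P18 Het arrays, against 5.80 to 6.12 in P0 Het arrays, and 2.63 to 2.73 in P18 Wt arrays, against 4.25 to 5.22 in P0 Wt arrays. The P18 arrays of both genotypes were near background, and the P0 Het arrays lay above all P0 Wt arrays. Members at background at P18 passed the filter through the P0 arrays, so the count of 42 is description only. In the same P0 Wt arrays fat markers (12.84 to 13.81, against 10.70 to 12.60 in P0 Het) and fibroblast markers (12.23 to 12.99, against 11.70 to 12.06 in P0 Het) were higher, and their part in this difference was not tested.

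The other called genes showed other patterns. Cdkn1a, the inhibitor p21, read 6.49 and 7.11 in P18 Het and 6.81, 5.88, 6.89 and 6.94 in P0 Het arrays, and 5.31, 5.33 and 5.31 in P18 Wt and 6.77, 7.27, 7.72 and 7.03 in P0 Wt arrays. The Het groups overlapped (0.17, adjusted p = 0.657), whereas Wt fell by 1.88 (difference of changes 2.05 ± 0.37, adjusted p = 0.0468). Pappa, a protease that cleaves IGF-binding proteins, read 4.66 and 5.38 in P18 Het arrays and 2.66 to 2.75 in P0 Het arrays, and its Wt difference was 0.09 (difference of changes 2.23 ± 0.36, adjusted p = 0.0286). All Wt arrays of Pappa lay at background (2.67 to 2.82). Gpnmb was likewise above 4 only in the P18 Het arrays (5.08 and 4.75, against 2.46 to 3.83 in the other arrays compared). Among these arrays both genes passed the filter only through the group where they were high, so their calls are description only. Gpnmb (1.67), Klf9 (1.64), Sel1l3 (1.31) and Rassf4 (1.29) rose further in Het, and Cpne9, which encodes a copine, rose by 2.59 in Het and by 4.46 in Wt (-1.87). Apart from those of Slc38a4 and Antxr2, each of these calls was kept in at most 7 of the 13 fits that left out 1 array. The count of 14 was 2 without P18 Het replicate 5, 3 without P0 Het replicate 5, 7 or 8, 4 without P18 Het replicate 4 or P18 Wt replicate 1, 5 without P0 Het replicate 6 or P18 Wt replicate 2, 8 without P18 Wt replicate 3, and 28 without P0 Wt replicate 2 or 3.

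**Figure D4:**
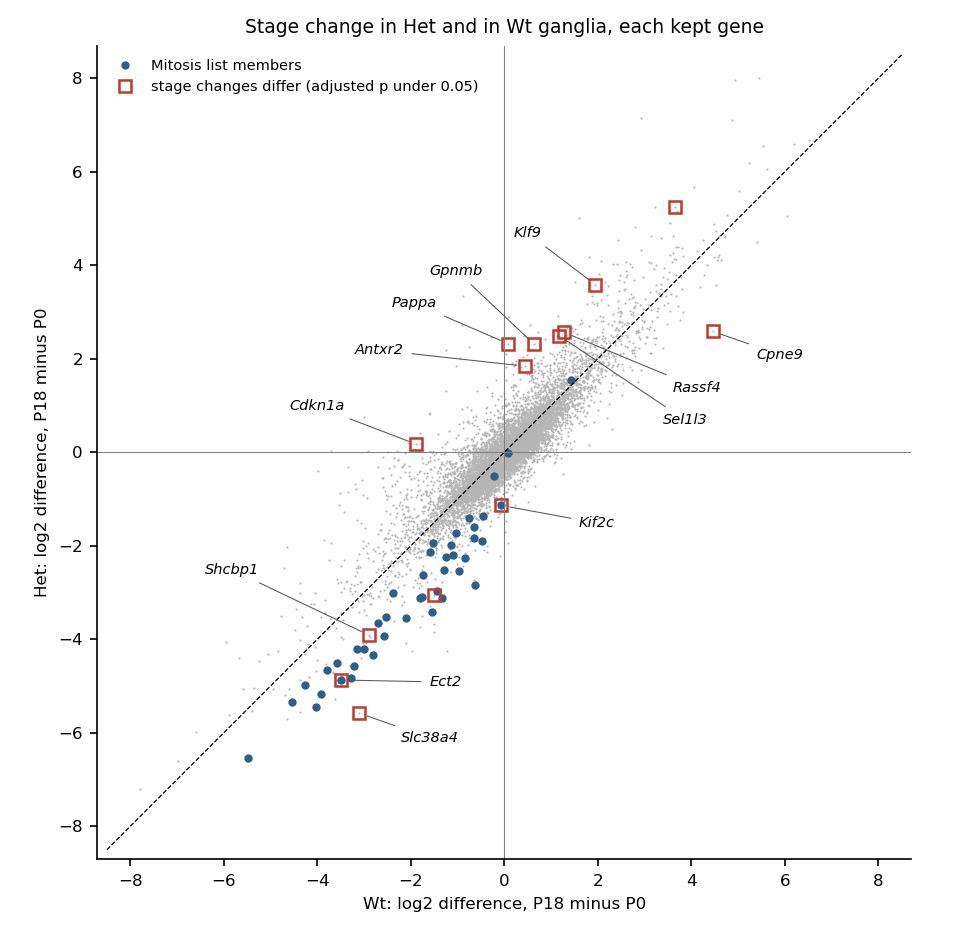
Log2 difference P18 minus P0 in Het ganglia (vertical axis) against that in Wt ganglia (horizontal axis) for each of 9973 genes (grey), with the 43 mitosis members in blue, the 14 genes whose changes differed as red squares (12 labelled, 2 without a symbol) and the dashed line of equal change. The cloud follows the line (Pearson r = 0.901), while 42 of the mitosis members lie below it.

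**Figure D5:**
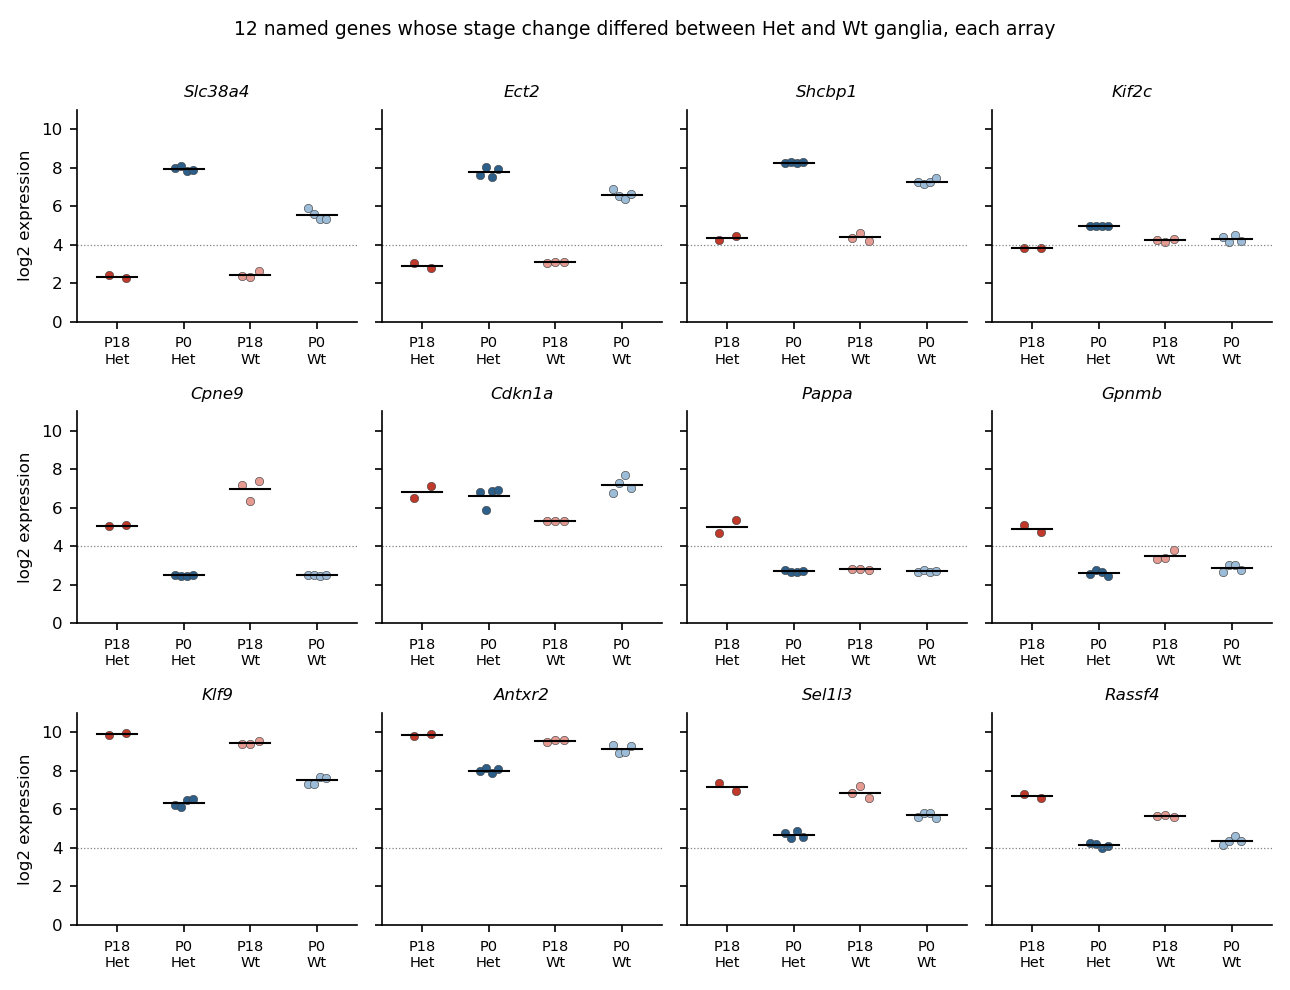
Log2 expression of the 12 named genes with a called difference of changes, in P18 Het, P0 Het, P18 Wt and P0 Wt arrays (2, 4, 3 and 4 points), with group means as black lines and a dotted line at 4. Slc38a4 lies at background at P18 in both genotypes and is higher at P0 in Het (7.80 to 8.08) than in Wt (5.34 to 5.91), and Cdkn1a at P18 is higher in Het (6.49 and 7.11) than in Wt (5.31 to 5.33).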

How the data were processed

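Total RNA of mouse sympathetic ganglia was hybridised to Affymetrix Mouse Genome expression arrays. The authors normalized the arrays with GCRMA (version not given in the sources used here) and Brainarray annotation and deposited log2 expression values, 1 per gene and array. GCRMA pulls weak probes to a common floor, which compresses differences near background, and whether all 17 arrays were processed together is not stated. Symbols came from the platform annotation, updated by Entrez ID (16464 of 17306 probe sets).

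These values were fitted with limma 3.58.1 (R 4.3.3). The model held the 5 group means and no covariate, and all 17 arrays shared its estimate of spread. Tests were moderated (trend, robust, two-sided) and p-values were adjusted over 9973 genes by Benjamini-Hochberg. Contrasts were the Het change, the Wt change and their difference. The named genes were the 12 largest called rises and falls without overlap of the arrays and with a group mean over 6, up to 3 members of a list per direction, 8 per direction of the difference, and Alk, Ret, Mycn, Th, Dbh, Npy, Vip and Cbln2. Others named were chosen after their values were seen, and not all are printed. The members and the 41 gene lists were chosen with earlier results of these data known.

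The code was tested on simulated data of 9973 genes with independent noise and equal spread in all groups. In each set 67 genes were changed by 0.5 log2 units, 67 by 1 and 66 by 2. Of these, 13.4%, 64.2% and 98.5% were recovered for the Het change, and 4.48%, 44.8% and 77.3% for the difference. Among unchanged genes there were 6 and 1 calls. The real arrays do not meet these settings, so the rates check the code and do not carry over to the data. Alternatives were other filters, quantile normalization, median centring, plain eBayes, array weights, a fold limit, the t-test that the study's methods name, the compared arrays alone, a replicate block and leaving out each array (a lone P18 Het array was then assumed to vary like the other groups). Leaving out P0 Wt replicates 1 and 4, or P0 Het replicates 6 and 8, was chosen after seeing the data. The number of arrays limits the precision.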

Additional observations from a re-analysis of the deposited data

Results flagged for a closer look

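In 14 of 207 genes named, 1 of the 4 P0 Het arrays lay far from the other 3 by Dixon's criterion, where chance gives about 1 in 20. Replicate 6 was apart for Acta2 (7.18), Cdkn1a (5.88), Gpr37l1 (2.06), Kcnk1 (3.12), Scn3b (5.97), Slc24a3 (5.19) and Tfap2b (11.76). Replicate 5 was apart for Efemp1 (3.20), Cdc20 (7.81) and Pmp22 (12.18), and replicate 8 for Ina (12.17). Replicate 7 was apart for Ifit1 (4.65, against 2.11 in each of the others), Mx1 (3.80, against 2.76 to 2.80) and Cd74 (2.90), the first 2 of them genes of the interferon response. For Gpr37l1, Cd74, Kcnk1 and Mx1 all 4 values lay near background.

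The change with age was called different between Het and Wt, by limma's test of the difference, for 12 named genes. The Het change was lower than the Wt change for Slc38a4 (-2.47), Cpne9 (-1.87), Ect2 (-1.37), Kif2c (-1.08) and Shcbp1 (-1.02). It was higher for Pappa (2.23), Cdkn1a (2.05), Gpnmb (1.67), Klf9 (1.64), Antxr2 (1.40), Sel1l3 (1.31) and Rassf4 (1.29). Adjusted p lay between 0.000533 for Slc38a4 and 0.0468. Apart from those of Slc38a4 and Antxr2, these calls were often lost when 1 array was left out. Those of Pappa and Gpnmb are description only, because of the filter.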

How the results depend on the processing

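The Het change was called for 4769 genes, and the count lay within 1.5 times of this except with a fold limit of 1 log2 unit (838 genes, 463 higher and 375 lower). It was 3498 to 4576 without single arrays, 4710 with no filter and 6767 with array weights, and the methods' t-test called 6134 genes unadjusted and 5501 after Benjamini-Hochberg. The Wt count of 5480 was 878 with the fold limit. The difference between genotypes was called for 14 genes, and for 31 with no filter, 3 with the stricter filter, 23 with plain eBayes, 303 with array weights, 0 with the fold limit (limma, 989 at an unadjusted p under 0.05 in the fit without it), 27 with the compared arrays alone, 56 without P0 Wt replicates 1 and 4, 3 without P0 Het replicates 6 and 8, and 2 to 28 without single arrays. After median centring 75% of its 16 calls were positive, against 57.1% of 14. Same-numbered arrays did not deviate together (r = -0.18 to 0.09), which cannot tell whether numbers mark a shared litter or batch. The replicate block gave 4720, 5274 and 7 calls for Het, Wt and the difference. The Het change of Cdkn1a (0.17, not called) was -0.0095 with array weights, -0.046 without P0 Het replicates 6 and 8, and -0.14 to 0.48 without single arrays. Mx1 (-0.20, not called) was -0.29 to 0.058 without single arrays, and Irf9 (0.16, not called) was -0.041 without P0 Het replicates 6 and 8. Of 185 called named genes, 108 kept their call in every alternative, 77 lost it in at least 1, and 18 in 1 other than the fold limit and the methods' t-test. Of the named genes that were not called, Vip, Slc6a2, Gata2, Fen1, Ifitm3, Dusp1 and Arntl were called with the compared arrays alone (adjusted p = 0.00606 to 0.0419), Prph and Rfc2, besides Gata2, Fen1, Ifitm3 and Dusp1, with array weights, Gata2, Ifitm3, Dusp1 and Arntl by the methods' t-test, and Ifitm3 without P0 Het replicate 7 (0.0496). The cause of these shifts was not tested. Signals under 4 lie near background, where sizes are inexact.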
